A study of Schmidtea mediterranea with 11 samples.

Results

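The 118 transcripts described here were those that, after bruli knockdown in the planarian Schmidtea mediterranea, were still close to control at day 20 and well below it at day 30. They were chosen from the 26562 transcripts of the table by their values on the log2(TPM+1) scale (TPM, a transcript's share of a library after scaling by length). The rule asked for a mean of 3 or more over the 3 control libraries, a difference of bruli minus control above -0.3 at day 20 and below -0.8 at day 30, and a day 30 value more than 0.5 below the lowest control. Of the 11285 transcripts at or above this control level, 499 met the day 30 criteria. Of these, 118 were the late fallers, 125 were already below -0.8 at day 20 and 256 lay in between at day 20. The bruli values of days 20 and 30 and all 3 control libraries were thus used for the choice, and what they show is a description without a test.

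Polyadenylated RNA of whole adult worms was sequenced in 11 libraries. All worms were of Berlin-1, an asexual strain raised from 1 individual, and dsRNA was injected on 3 consecutive days. The knockdowns were bruli(RNAi), against the CELF family gene Smed-bruno-like; mbnl(RNAi), against Smed-mbnl-1 and Smed-mbnl-like-1, -2 and -3 in one mix; Smed-H2B(RNAi), against a histone gene; and Smedwi-2(RNAi), against a piwi family gene. The control was control(RNAi), with dsRNA of gfp, a gene that planarians lack. Worms of bruli, mbnl and control were taken at days 20, 25 and 30, with 1 library per group and day, and the labels give no day for the single Smed-H2B and Smedwi-2 libraries. The sources do not say whether the worms of each day were a separate cohort, so the p-values below measure only the spread between these libraries.

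Adult planarians renew all their tissues from neoblasts, the only dividing somatic cells, whose daughters leave the cell cycle and pass through progenitor stages before they differentiate. CELF proteins such as Bruli and muscleblind-like proteins such as those of the mbnl genes bind RNA and regulate alternative splicing, and bruli is needed to keep the neoblasts. Knockdown of the histone gene Smed-H2B also removes neoblasts, whereas Smedwi-2 is needed for their daughters to differentiate and replace lost cells. In RNA of whole worms, fewer cells of a type and less RNA per cell cannot be told apart.

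The dsRNA that defines the time course was made from a fragment of bruli, and its primer pair is shown because the choice of the 118 transcripts rests on this knockdown.
first bruli primer: ctccactcgtaaattccagtcc
second bruli primer: ctccctttggtcgttttaattg
The bruli transcript (comp2592_c0_seq1) stood at 6.33, 3.33 and 4.27 TPM in bruli worms at days 20, 25 and 30, at 96.7, 110 and 113 TPM in mbnl worms, at 19.4 TPM in Smed-H2B worms and at 82.4 TPM in Smedwi-2 worms, against 82.9, 83.1 and 84.9 TPM in control worms. Its level was thus low in every bruli library and also in the Smed-H2B library. Of the 4 mbnl transcripts, 3 were lower in every mbnl library than in every control library, and mbnl-like-3 was at 1.62 to 2.81 TPM in mbnl worms and 2.03 to 3.03 TPM in control worms. The Smed-H2B and Smedwi-2 transcripts themselves were not analysed here.

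Markers of neoblasts and of their early epidermal progeny were read beside the late fallers, since none of the 5 is one of them. The study used further progeny markers, and whether any of those is a late faller is not given here. The summed level of the neoblast markers smedwi-1 and pcna was 32.5, 20.6 and 14.5 TPM in bruli worms at days 20, 25 and 30, 273 to 305 TPM in mbnl worms, 67.9 TPM in Smed-H2B worms and 352 TPM in Smedwi-2 worms, against 249 to 269 TPM in control worms. In bruli worms smedwi-1 was lower at each step (26.8, 17.2 and 8.63 TPM), whereas pcna stood at 5.63, 3.43 and 5.91 TPM. The summed level of the progeny markers (prog-2-1, prog-1 and prog-1-1) was 1443, 958 and 501 TPM in bruli worms, 2960 to 3650 TPM in mbnl worms, 867 TPM in Smed-H2B worms and 3512 TPM in Smedwi-2 worms, against 2281 to 2863 TPM in control worms. Most of this sum was prog-2-1. In Smedwi-2 worms prog-2-1 was at 2830 TPM (mean control 1817), prog-1 at 334 (346) and prog-1-1 at 348 (408). In mbnl worms each progeny marker was above the same-day control at days 20 and 25. At day 30 prog-2-1 was at 2229 TPM (control 1771), prog-1 at 323 (381) and prog-1-1 at 408 (419). All 5 markers were lower in each bruli library and in the Smed-H2B library than in every control library, and none was at 0 in any library. The neoblast markers were thus low at day 20 already, the day on which the rule asks for late fallers near control. The part of these cells in the results below was not tested. The bruli day 30 library also had the most transcripts at 0 TPM (5338, against 3729 to 4745 in the other libraries) and the largest share of TPM in its 10 most abundant transcripts (13.1%, against 8.53% to 11.2%), and whether this moved with the choice was not tested.

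The late fallers were lower step by step in bruli worms. Their median level was 14.1, 12.9 and 8.31 TPM in bruli worms at days 20, 25 and 30, against 14.7, 16.6 and 17.8 TPM in control worms of the same days. In the differences of single transcripts the median was -0.13 at day 20, -0.52 at day 25 and -0.95 at day 30 on the log2 scale. The last corresponds to 51.8% of control in TPM+1, the scale of the differences, and not in TPM. For all 11285 transcripts of that control level the medians were 0.06, -0.03 and -0.06, so these came down slightly as well. The bruli library of day 25, which the rule did not use, gave differences with quartiles of -0.72 and -0.28, although the control it was set against was part of the rule. In 92 of 118 transcripts (78.0%) the bruli level was lower at each step, against 26.0% of the 11285 transcripts of that control level, and in 113 (95.8%) it was lower at day 30 than at day 25, against 62.0%. These counts rest in part on the days 20 and 30 that the rule used.

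**Figure D1:**
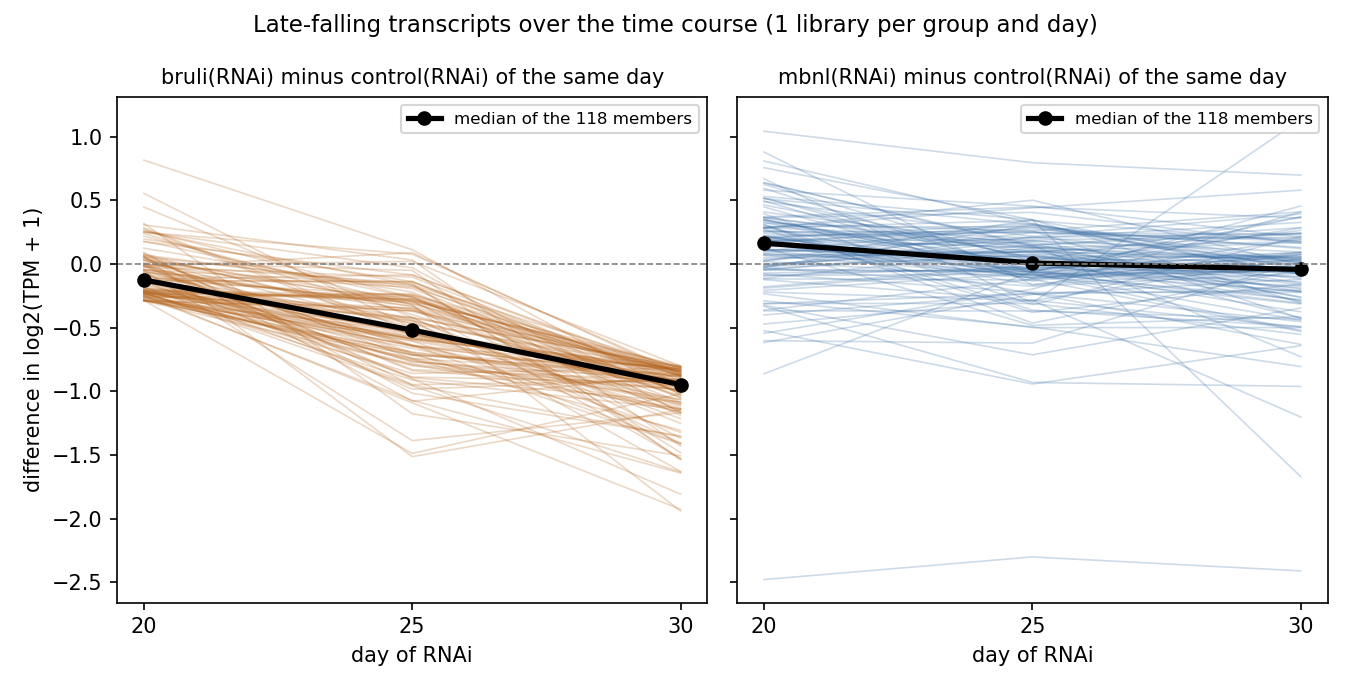
Difference in log2(TPM+1) from the control library of the same day for each of the 118 late fallers (thin lines) after bruli knockdown (left) and mbnl knockdown (right), against the day of RNAi. The black line joins the medians, which are -0.13, -0.52 and -0.95 in bruli worms and 0.16, 0.01 and -0.04 in mbnl worms.

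At day 25 the bruli library of 32 late fallers (27.1%) was more than 0.7 below the control of that day on the log2 scale, and 100 of 118 were below all 3 controls. Of all 11285 transcripts of this control level, 4.82% passed the same fold at day 25 and 33.6% were below all 3 controls. Of the 9798 whose day 20 difference was likewise above -0.3, 1.63% passed it. Against the mean of the 3 mbnl libraries, which the rule did not use, 38 late fallers (32.2%) were more than 0.7 lower in the bruli day 25 library, against 6.14% of all transcripts of this level. A further 52 late fallers (44.1%) lay between -0.7 and -0.3 at day 25, against 17.0% of all transcripts of this level, and 34 (28.8%) were above -0.3, against 78.2%.

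The word late describes the size of the difference at day 20 and not its absence. In 70 of 118 late fallers (59.3%) the bruli day 20 library was already below all 3 controls, against 29.9% of all transcripts of this level, and this share follows in part from the rule, which used these libraries. It lay within the range of the controls in 36 and above it in 12. The controls also moved with the choice: 98 of 118 had a higher control at day 30 than at day 20, with a median difference of 0.19, against 61.7% of all transcripts and a median of 0.07. In the mbnl libraries, which the rule did not use, 51 (43.2%) were lower at day 30 than at day 20 with a median difference of 0.02, against 33.7% of all transcripts of this level and a median of 0.08.

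Membership depended on narrow margins. The transcripts nearest the day 20 limit had differences of -0.29 inside it and -0.30 outside it, and those nearest the day 30 limit had differences of -0.80 on either side. The smallest gap to the lowest control was 0.51 inside the rule and 0.49 outside it. With each library centred on its median, 68 transcripts met the rule, 66 of them among the 118. With quantile normalization of all libraries, 56 met it, all among the 118. The same rule applied to the mbnl libraries in place of the bruli ones took 38 transcripts, and its mirror image, a late rise after bruli knockdown, took 84.

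The low end of the abundance range held a larger share of the late fallers than of all transcripts. Their mean control level was between 3 and 4 on the log2 scale in 55 of 118 (46.6%), against 28.5% of all transcripts with 3 or more. At the other end, 14 of 118 had a mean control of 7 or more, where 10.1% of all transcripts lay. Late fallers made up 1.71% of the transcripts between 3 and 4 and 1.23% of those of 7 or more, but 0.61% of those between 5 and 6. The most abundant late faller, comp146_c0_seq2, stood at 1824, 1952 and 1168 TPM in bruli worms at days 20, 25 and 30, at 1499, 1765 and 1552 TPM in mbnl worms, at 2195 TPM in Smed-H2B worms and at 2320 TPM in Smedwi-2 worms, against 1980, 2072 and 2124 TPM in control worms. Its Smed-H2B and Smedwi-2 libraries lay above every control. The next, comp68_c0_seq1, stood at 1791, 1376 and 1038 TPM in bruli worms, at 2053, 2023 and 2083 TPM in mbnl worms, at 1339 TPM in Smed-H2B worms and at 1174 TPM in Smedwi-2 worms, against 2093, 1639 and 2207 TPM in control worms. This one was below every control in the Smed-H2B and Smedwi-2 libraries, so the most abundant pair, chosen after their values were seen, differed outside the time course.

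**Figure D2:**
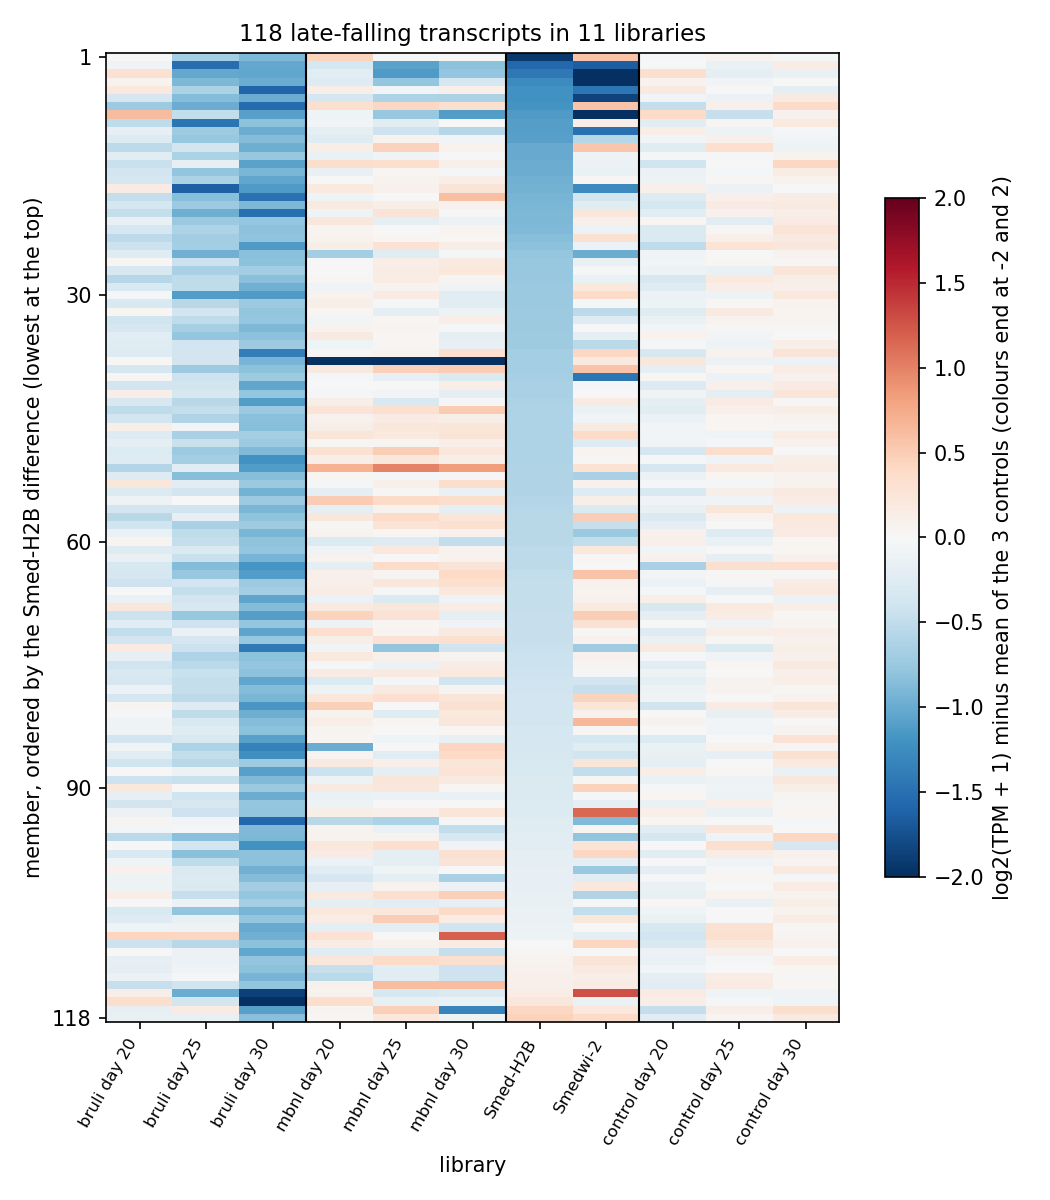
Level of each of the 118 late fallers (rows, ordered by the Smed-H2B difference) in the 11 libraries (columns), as log2(TPM+1) minus the mean of the 3 controls, with blue for lower and red for higher. The bruli columns darken over days 20, 25 and 30, the Smed-H2B column is below 0 in 108 rows and the Smedwi-2 column has rows on either side of 0.

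The table gives no gene names, and the study's lists of RNA binding proteins (RBPs) and core spliceosome proteins name 3 of the 118 transcripts. All 3 stand for proteins of RNA processing, which the lists were made of, so nothing follows from that for the other 115. The first, comp15229_c0_seq1, has as best human hit DDX55, a DEAD-box RNA helicase that in human cells acts in the making of the large ribosomal subunit. It stood at 5.07, 4.03 and 2.46 TPM in bruli worms at days 20, 25 and 30, at 11.6, 12.4 and 11.5 TPM in mbnl worms, at 3.40 TPM in Smed-H2B worms and at 13.9 TPM in Smedwi-2 worms, against 6.19, 9.72 and 12.2 TPM in control worms. The bruli and Smed-H2B libraries were below every control, and the controls rose over the days, so that the difference of -1.93 at day 30 was set by both.

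The second, comp5318_c0_seq1, has as best human hit LSM2, a subunit of the LSm rings that bind U6 snRNA in the nucleus and decaying mRNA in the cytoplasm. It stood at 10.7, 11.7 and 6.56 TPM in bruli worms, at 16.8, 15.3 and 15.0 TPM in mbnl worms, at 7.39 TPM in Smed-H2B worms and at 12.6 TPM in Smedwi-2 worms, against 10.9, 10.9 and 12.9 TPM in control worms. Its bruli level was at control through day 25 (difference 0.09) and below every control at day 30 (difference -0.88). The third, comp6062_c0_seq1, is listed as a core spliceosome protein without a name. It stood at 12.7, 6.04 and 9.97 TPM in bruli worms, at 17.7, 15.8 and 18.3 TPM in mbnl worms, at 8.01 TPM in Smed-H2B worms and at 20.1 TPM in Smedwi-2 worms, against 15.7, 18.8 and 21.2 TPM in control worms. Here the lowest bruli level was that of day 25, with a difference of -1.49, and day 30 followed at -1.02.

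The RBPs and spliceosome proteins were counted by the same criteria. Of the 268 RBPs with a mean control of 3 or more, 34 were low at day 30 by the same criteria, of which 2 were late fallers, 26 lay in between at day 20 and 6 were already below -0.8. Of the 62 among them that the study's sorted cell fractions give as enriched in neoblasts (by 2 or more on the log2 scale over differentiated cells), 28 were low at day 30, of which 1 was a late faller. None of the 39 enriched in differentiated cells (-1 or less on that scale) was low at day 30. The 77 core spliceosome proteins included 12 that were low at day 30, of which 2 were late fallers. Of all 11285 transcripts, 4.42% were low at day 30 and 1.05% were late fallers, beside 0.75% of the RBPs and 2.60% of the spliceosome proteins, each of which rests on 2 transcripts. By family, 1 of 54 RNA helicases, 1 of 12 Sm and LSm proteins and 1 of 22 ribosome biogenesis proteins was a late faller, and the helicase and the ribosome biogenesis protein are the same transcript, comp15229_c0_seq1. There was none among 28 SR and hnRNP proteins, 10 Piwi and germ granule proteins, 7 translation factors and poly(A) binding proteins and 21 neural-type RBPs.

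Deep falls after bruli knockdown came with and without a low level in the Smed-H2B library. The 2 unnamed late fallers with the lowest day 30 difference were comp12179_c0_seq1 and comp6346_c0_seq1, both without one. The first stood at 14.1, 8.22 and 1.93 TPM in bruli worms at days 20, 25 and 30, at 14.2, 9.79 and 9.82 TPM in mbnl worms, at 12.9 TPM in Smed-H2B worms and at 9.90 TPM in Smedwi-2 worms, against 12.0, 10.5 and 10.2 TPM in control worms. The second stood at 13.3, 5.53 and 2.55 TPM in bruli worms, at 12.7, 9.45 and 9.66 TPM in mbnl worms, at 13.4 TPM in Smed-H2B worms and at 30.8 TPM in Smedwi-2 worms, against 13.5, 11.2 and 11.4 TPM in control worms. Their day 30 differences were -1.94 and -1.81, whereas their Smed-H2B differences were 0.23 and 0.15. The helicase transcript comp15229_c0_seq1, at -1.93 as deep, had a Smed-H2B difference of -1.19.

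**Figure D3:**
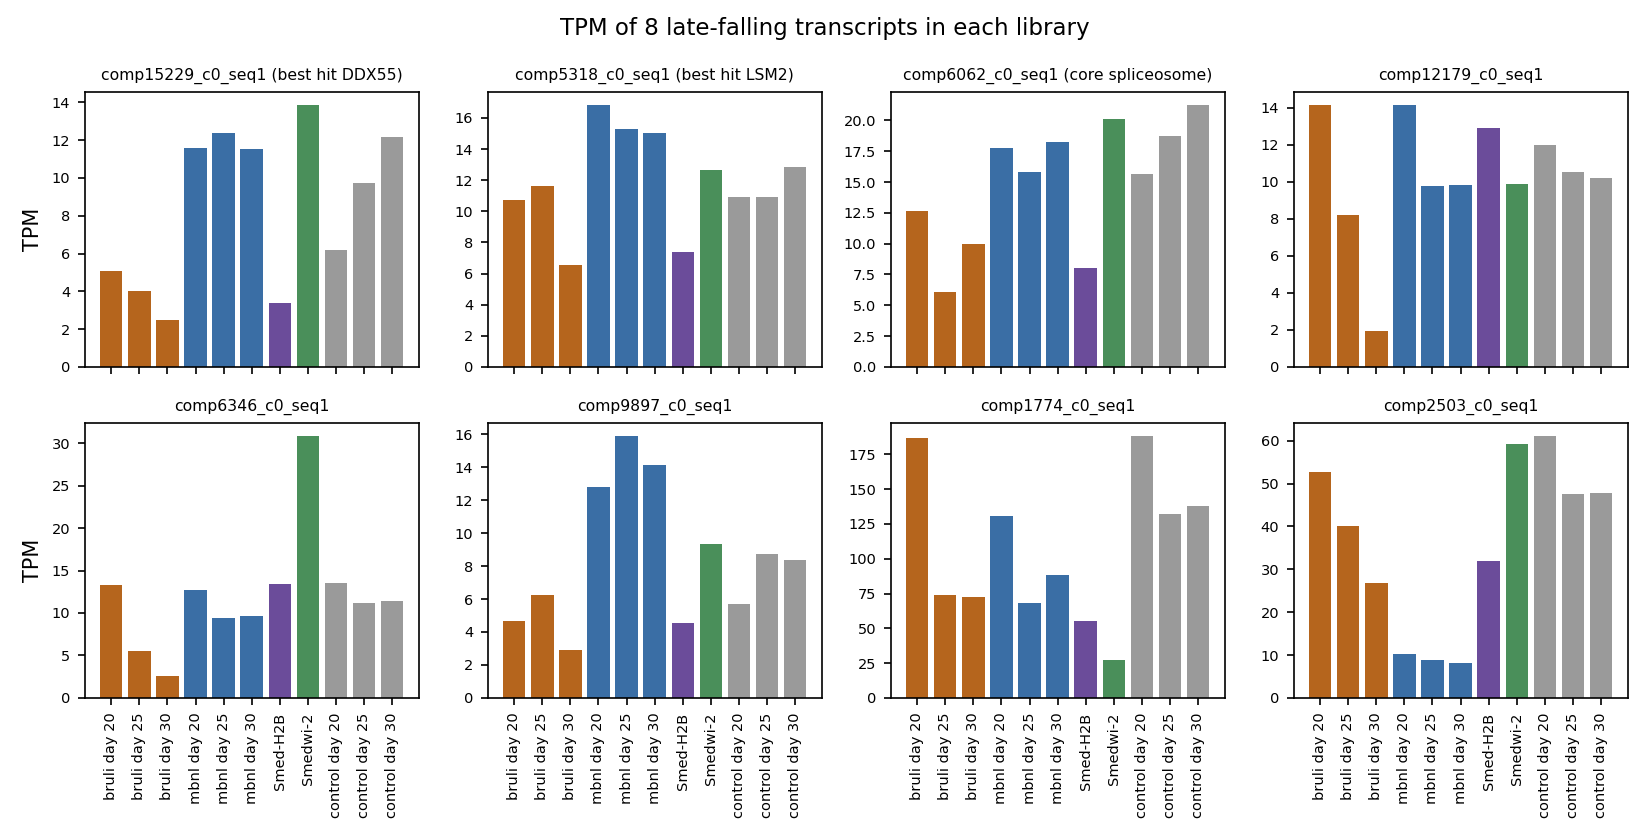
TPM (vertical axis, from 0) of 8 late fallers in each library: bruli (brown), mbnl (blue), Smed-H2B (purple), Smedwi-2 (green) and control (grey), with 1 bar per library. The day 30 bruli bar is below every control bar in all 8 panels, and the mbnl bars of comp2503_c0_seq1, at 8.19 to 10.1 TPM, are the lowest of its panel.

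The mbnl knockdown was the only comparison of the late fallers that allowed a test, with limma over the 9 libraries of the time course and the day as a block. The 3 control libraries entered both the rule and this test. So did the bruli libraries of days 20 and 30, through the estimate of the spread. The rule chose transcripts whose bruli difference changed between these days, which the model counts as spread. With only the mbnl and control libraries 3 late fallers were lower and 2 higher, beside 95 and 206 of all transcripts tested. The calls moved with the bruli libraries. Without the bruli library of day 20, 25 or 30, the late fallers called numbered 7, 1 and 6, against 3 with all 9 libraries. All 118 were among the 15492 transcripts tested. After mbnl knockdown 2 of the 118 were lower and 1 was higher at an adjusted p under 0.05, that is 1.69% and 0.85%, beside 1.68% lower and 4.31% higher among all transcripts tested. In this fit of 9 libraries, on the deposited values and at this threshold, the share of lower calls was thus near the background. That of higher calls was below it. These shares rest on 2 transcripts and 1 transcript. In the fit of only the mbnl and control libraries given above, both shares were higher than those of all transcripts tested. There they rest on 3 lower and 2 higher late fallers. At an unadjusted p under 0.05, 11 were lower (9.32%) and 5 were higher (4.24%), against 5.06% and 19.1% of all transcripts tested. The balance of all calls turned with the scaling: 261 transcripts were lower and 667 higher on the deposited values, against 557 and 212 with median centring and 376 and 260 with quantile normalization of all libraries, where 6 and 4 late fallers were lower and none was higher. The median log2 fold change of mbnl over control was 0.05 for the late fallers and 0.11 for all transcripts tested. Day by day, 2, 4 and 6 late fallers (1.69%, 3.39% and 5.08%) were more than 0.7 below the control of days 20, 25 and 30 in mbnl worms, beside 0.798%, 1.24% and 1.8% of all transcripts of their control level. In 13 late fallers all 3 mbnl libraries were below all 3 controls and in 17 they were above, against 7.03% and 22.6% of the 11285 transcripts of their control level.

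One of the 3 calls was far larger than the rest. The transcript comp2503_c0_seq1, named like comp1774_c0_seq1 after its values were seen, stood at 10.1, 8.85 and 8.19 TPM in mbnl worms at days 20, 25 and 30, at 52.7, 40.1 and 26.8 TPM in bruli worms, at 32.0 TPM in Smed-H2B worms and at 59.1 TPM in Smedwi-2 worms, against 61.1, 47.5 and 47.9 TPM in control worms. It fell after mbnl knockdown by 2.40 on the log2 scale (SE 0.13, adjusted p = 0.000170 from limma) and was lower at all 3 days. This call held under all 22 alternative settings, with adjusted p from 4.63e-05 to 0.0229. Its bruli level came down over the days but stayed above that of the mbnl libraries.

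The other calls were near the threshold. The transcript comp1774_c0_seq1 stood at 130, 68.2 and 88.1 TPM in mbnl worms, at 187, 73.9 and 72.8 TPM in bruli worms, at 55.5 TPM in Smed-H2B worms and at 27.2 TPM in Smedwi-2 worms, against 188, 132 and 138 TPM in control worms. It fell after mbnl knockdown by 0.70 (SE 0.16, adjusted p = 0.0362 from limma) and was called in 11 of 22 alternatives (adjusted p 0.00748 to 0.284). It was thus lower than every control in each knockdown and at each day except bruli at day 20. The transcript comp9897_c0_seq1 stood at 12.8, 15.9 and 14.2 TPM in mbnl worms, at 4.64, 6.24 and 2.93 TPM in bruli worms, at 4.56 TPM in Smed-H2B worms and at 9.35 TPM in Smedwi-2 worms, against 5.69, 8.74 and 8.35 TPM in control worms. It rose after mbnl knockdown by 0.84 (SE 0.19, adjusted p = 0.0360 from limma) and was called in 8 of 22 alternatives (adjusted p 0.0160 to 0.243). With each library left out in turn, the number of late fallers called ranged from 1 to 7, with 1 without the bruli or the control library of day 25 or any 1 of the mbnl libraries, 6 without the bruli library of day 30 and 7 without that of day 20. The helicase and LSm transcripts described above did not pass (log2 fold change 0.35, adjusted p = 0.431, and 0.41, adjusted p = 0.191, from limma).

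In the Smed-H2B library the late fallers were low as a group. Their median level was 12.2 TPM in Smed-H2B worms, against 14.7 to 17.8 TPM in the control worms. The median difference from the mean control was -0.55, or 68.3% of control in TPM+1. Of the 118, 36 (30.5%) were more than 0.7 below the mean control and none was more than 0.7 above it (3.35% of all transcripts of that level were). Of all 11285 transcripts of that level, 6.04% were that far below and their median difference was 0.01. In 99 late fallers the Smed-H2B library was below all 3 controls (35.4% of all transcripts of this level were), and in 88 (74.6%) this held for the bruli library of day 25 as well, against 26.9% of all transcripts of this level. In 89 (75.4%) the Smed-H2B library was below all 6 control and mbnl libraries, against 31.3% of all transcripts of this level. Each of these counts rests on 1 Smed-H2B library without a replicate and with no test. All of them also use the 3 controls, whose lowest value was part of the rule.

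Set against the mbnl libraries, which had no part in the choice, the Smed-H2B level was again lower. The median difference from the mean of the 3 mbnl libraries was -0.62, and 44 of 118 (37.3%) were more than 0.7 lower, against 7.78% of all transcripts of this level. The lowest Smed-H2B difference among the late fallers was that of comp8540_c0_seq1, a transcript chosen after its values were seen. It stood at 7.52, 4.30 and 3.56 TPM in bruli worms at days 20, 25 and 30, at 10.6, 7.22 and 7.54 TPM in mbnl worms, at 1.23 TPM in Smed-H2B worms and at 11.7 TPM in Smedwi-2 worms, against 7.24, 7.88 and 7.33 TPM in control worms. Its Smed-H2B level was lower than the lowest bruli level.

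**Figure D4:**
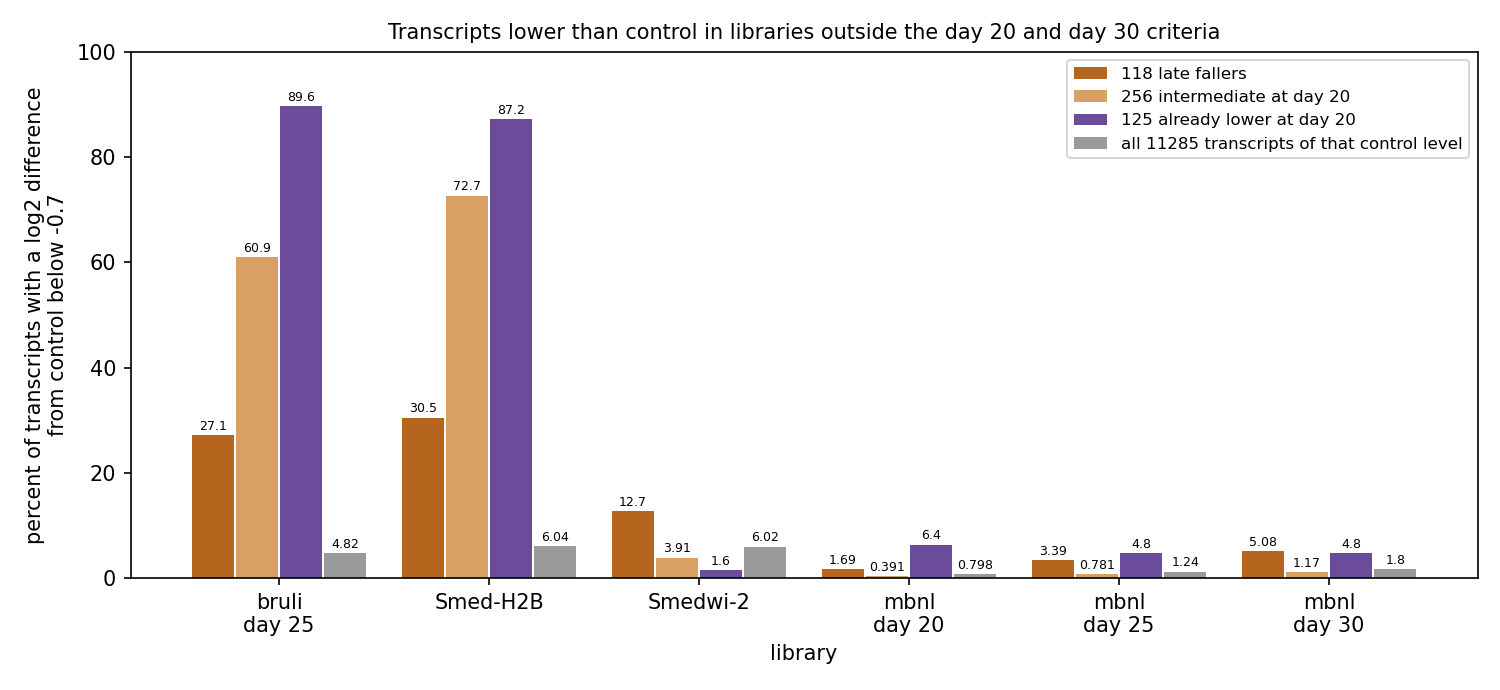
Percentage of transcripts whose log2(TPM+1) was more than 0.7 below control (same day for bruli and mbnl, mean of 3 controls for Smed-H2B and Smedwi-2) in libraries other than those of bruli at days 20 and 30. Bars give the 118 late fallers, the 256 intermediate transcripts, the 125 already low at day 20 and all 11285 transcripts of that control level, with 27.1%, 60.9%, 89.6% and 4.82% for bruli at day 25.

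In the Smedwi-2 library the late fallers were spread much like all transcripts, apart from a larger share of low values. Their median level was 16.6 TPM in Smedwi-2 worms and the median difference from the mean control was 0.00, with quartiles of -0.28 and 0.21, against a median of 0.03 and quartiles of -0.23 and 0.26 for all transcripts of this level. Of the 118, 15 (12.7%) were more than 0.7 below the mean control, against 6.02% of all transcripts of this level, and 2 (1.69%) were more than 0.7 above it, against 4.19%. In 41 (34.7%) the library was below all 3 controls and in 35 (29.7%) it was above, beside 32.8% and 39% of all transcripts of this level. Of the 15, 9 were more than 0.7 lower in the Smed-H2B library as well, which makes 7.63% of the late fallers low in both, against 0.62% of all transcripts of this level.

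The lowest Smedwi-2 difference was that of comp3808_c0_seq1, named for this value. It stood at 77.6, 39.5 and 36.7 TPM in bruli worms at days 20, 25 and 30, at 61.7, 43.1 and 57.7 TPM in mbnl worms, at 30.0 TPM in Smed-H2B worms and at 12.1 TPM in Smedwi-2 worms, against 77.5, 71.4 and 73.6 TPM in control worms. Like comp1774_c0_seq1, it was close to control in the bruli library of day 20 alone and below every control in the other 7 knockdown libraries. The highest Smedwi-2 difference was that of comp6346_c0_seq1, given above.

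**Figure D5:**
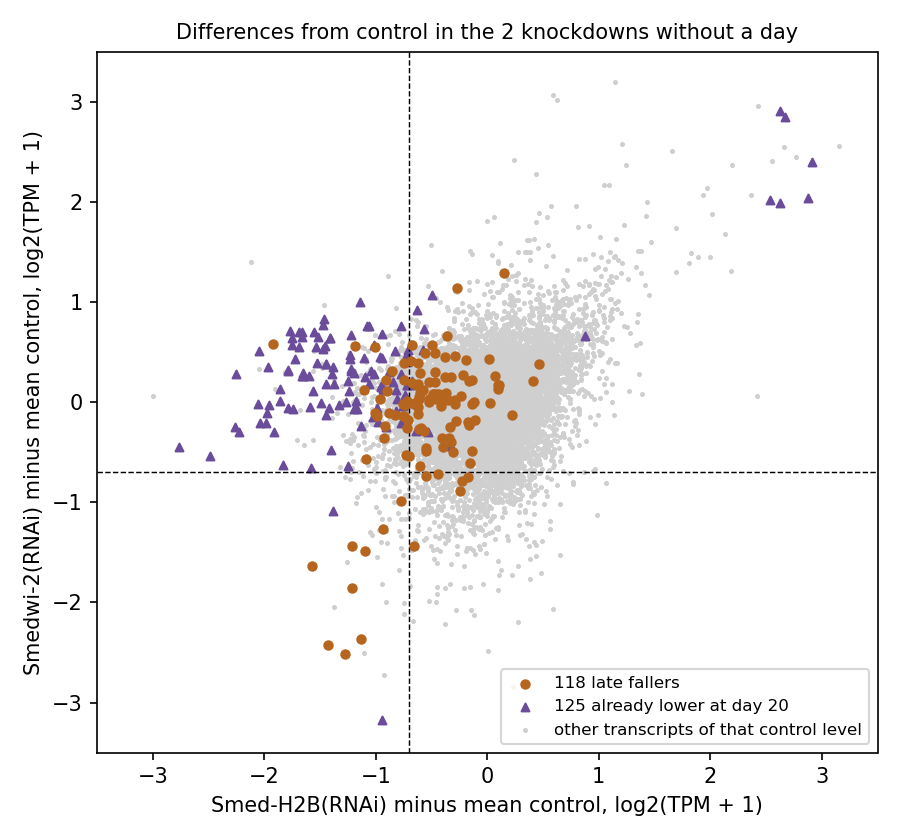
Difference from the mean of the 3 controls in log2(TPM+1) in the Smed-H2B library (horizontal) and in the Smedwi-2 library (vertical) for the late fallers (brown), the transcripts already low at day 20 (purple) and the other transcripts of that control level (grey), with 4 transcripts outside the axes. Dashed lines mark -0.7, and 9 late fallers lie in the lower left corner.

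The late fallers were set beside the 256 intermediate transcripts and the 125 that were already low at day 20, which met the same day 30 criteria. Day 20 separates these groups by the rule, and no test was made between them. Their median day 30 differences, which the rule used, were -0.95 in the late fallers, -0.997 in the intermediate transcripts and -1.60 in the early ones. At day 25 the bruli library was more than 0.7 below control in 27.1% of the late fallers, in 60.9% of the intermediate transcripts and in 89.6% of the early ones. In the Smed-H2B library the shares were 30.5%, 72.7% and 87.2%, with medians of -0.55, -0.83 and -1.23. The late fallers thus had the smallest share of low Smed-H2B values of the 3 groups, although their day 30 median was close to that of the intermediate transcripts. In the Smedwi-2 library 12.7% of the late fallers, 3.91% of the intermediate transcripts and 1.60% of the early ones were more than 0.7 lower, whereas 1.69%, 1.17% and 15.2% were more than 0.7 higher.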

How the data were processed

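The authors removed rRNA reads, mapped the rest to the Dresden transcriptome, counted reads per transcript and deposited TPM, scaled by transcript length and library total. For its own comparisons the paper also quantile normalized the control samples, a step used here only as an alternative. The submitters' processing notes name Bowtie2 2.1.0, HTSeq 0.6.1p1 and CASAVA 1.8.2. Every deposited TPM column has the same sum and keeps no counts, so depth is unknown and no counting interval was given. A TPM value is relative to all others of its library.

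Values were taken as log2(TPM+1) and groups from the labels. The time course was fitted with limma 3.58.1 in R 4.3.3, with terms for group and day (the block, as in the study's same-day comparisons), a trended variance and 4 residual degrees of freedom. Its 9 libraries had to average over 1.5 for a transcript to be tested, which 15492 did, and Benjamini-Hochberg adjustment ran over all of them. A test on simulated data recovered 68 of 100 transcripts changed by 1 and 26 of 100 changed by 0.5 for mbnl, with 4 false calls in 15492. Single libraries were compared at a log2 difference of 0.7 without a test.

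The members and lists were chosen with earlier results of these data known. Named were the members in a study table, the 2 unnamed with the lowest day 30 difference and up to 2 that rose most past the mbnl test. The exceptions are named where they appear. Marker identifiers followed an earlier description of these libraries. Alternatives were other pseudocounts, filters, thresholds, scalings and controls, no block, no trend, and leaving out libraries and days.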

Additional observations from a re-analysis of the deposited data

How the results depend on the processing

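The number of late fallers was 68 with median centring, 56 with quantile normalization of all libraries and 55 with a pseudocount of 5, against 118. It was 63 with a mean control of 4 or more, and stayed within 1.5 times under the other settings. Which transcripts were taken changed as well. With quantile normalization of the controls, a step of the paper's own analysis, 88 met the rule, 78 of them among the 118. With a pseudocount of 0.5, 119 met it, 104 of them among the 118. Of the 55 with a pseudocount of 5, 42 were among the 118. The count lower in bruli at day 25 (32) was 16 with a pseudocount of 5, 61 at a threshold of -0.5 and 8 at -1. For Smed-H2B (36) it was 17, 63 and 13, and 31 to 45 with each control left out. For Smedwi-2 (15) it was 9 at -1, and 11 to 15 with each control left out. The late fallers called after mbnl knockdown (3) numbered 6 with median centring, all lower, 1 without a filter, 1 without a trend and 5 with only the mbnl and control libraries. They numbered 6 without day 20, 1 without day 25 and 1 without day 30, and 1 to 7 with each library left out. The day as a block mattered as well: without it 1 was called. The mbnl fold change of comp12179_c0_seq1, 0.02, became -0.11 with median centring and with quantile normalization, and -0.075 without day 20. Leaving out each library gave -0.25 to 0.36 for it, -0.32 to 0.085 for comp6062_c0_seq1 and -0.42 to 0.061 for comp6346_c0_seq1, none of which passed the test. Where a value moved, the cause was not tested. TPM holds no depth, and with 1 library per group and day no error can be given for a single day, nor for Smed-H2B and Smedwi-2.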
